A study of Mus musculus with 6 samples.

Results

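A set of 10 genes of the mouse telomere was followed between embryonic stem cells without Tet1, Tet2 and Tet3 and their parent line. They comprise 7 genes of shelterin, the protein complex bound to telomeric DNA (Terf1, Terf2, Terf2ip, Tinf2, Acd, Pot1a and Pot1b), 2 genes of telomerase (Tert and Dkc1) and the helicase gene Rtel1. The members were taken as every probe that carries one of these gene names in the scanner files, which gave 16 probes among 55681 on the array. In all, 15 of the 16 passed the filter on dim probes, and each of the 10 genes kept at least 1. The tested cells (TKO, 3 arrays) are labelled as a knockout of Tet1, Tet2 and Tet3 made from the wild-type line BJ FF2 ES, and the wild-type cells (WT, 3 arrays) are that line. Both were kept in 2i medium on inactivated mouse embryonic feeder cells and moved to feeder-free matrigel before collection. Each array measured total RNA of 1 dish, so the p-values below measure the spread between dishes of these 2 cell populations and hold no spread between independently derived lines. How many clones the TKO cells represent is not given in the sources used here. In whole-culture RNA, fewer cells that carry a transcript and less of it per cell cannot be told apart.

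Telomeres end mammalian chromosomes in repeats of a short hexamer, and shelterin hides these ends from the DNA damage response. TRF1 and TRF2 bind the double-stranded repeats, TIN2 bridges them, TPP1 links TIN2 to POT1 on the single strand and helps to recruit telomerase, and RAP1 binds TRF2. Telomerase adds repeats by copying an RNA template, and it is active in embryonic stem cells. TET enzymes oxidise methylated cytosine in DNA, and the comparison asks which RNAs differ in cells without them.

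Each level is the log2 of the background-subtracted signal of a probe relative to the 75th percentile of its array, and each difference is TKO minus WT on that scale. A gene is represented by its probe with the highest mean over the 6 arrays. It was called where limma's test, adjusted by the Benjamini-Hochberg method over all 30731 tested probes, gave an adjusted p under 0.05. Between 51.9% and 58.5% of spots per array were well above background, and the 75th percentile lay between 366.9 and 412.9 intensity units. Tet1 and Tet2 RNA was lower in TKO cells (by 1.37 and 2.93 on the log2 scale for their brightest probes), whereas the brightest Tet3 probe differed by -0.24 ± 0.099 (SE, adjusted p = 0.0904). Tet3 was called lower with normexp (adjusted p = 0.0261), quantile normalization (0.014) and median centring (0.00426). The dimmest Tet2 probe differed by -0.43 ± 0.196 (SE, adjusted p = 0.111). The labels do not give the altered exons, so a probe outside them checks nothing. All 10 embryonic stem cell markers, among them Pou5f1, Sox2 and Nanog, were well above background on every array, 5 were called lower in TKO (these 3 among them) and 3 higher, with a summed signal of 746 to 809 times the 75th percentile on TKO arrays and 800.4 to 874 on WT arrays. Of 10 feeder fibroblast markers, Lum was not well above background on any array, 6 of the 9 tested were called higher in TKO and Pdgfrb was called lower, and their summed signal was 35.2 to 38.0 on TKO arrays against 28.0 to 28.7 on WT arrays. The part of feeder RNA in the differences below was not tested.

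In TKO cells 7 of the 10 genes were called lower and 0 higher in limma, 0 higher also at an unadjusted p under 0.05. Of all 21562 tested genes 58.3% were called, 28.9% lower and 29.4% higher, so that a call by itself sets no gene apart in these cells. Terf1 alone of the 10 was called at 2-fold or more, as were 6.25% of all tested genes in the lower direction. The median difference of the 10 genes was -0.25, beside -0.0083 for all tested genes. Their median size without regard to sign was 0.25, beside 0.30 for all tested genes. The 3 TKO values lay wholly outside the 3 WT values for 8 of the 10 genes, which was also the case for 67.6% of all tested genes. Counted by probe, 9 of the 15 tested were called lower and 0 higher, against 28.2% and 28.9% of all tested probes (57.1% in either direction), and 10 of the 15 had groups that did not overlap, against 65.8%. Centred on the array median in place of the 75th percentile, the median of all tested genes was -0.21, the members moved down with it, and 8 were called lower, Rtel1 now among them. All arrays were on 1 slide, with the WT arrays and TKO replicate 1 in its first row and TKO replicates 2 and 3 in its second. Rtel1, not called in the main fit, passed with the row as a block, whereas Acd, Tinf2 and Tert lost their calls there. With the row as a block 5 member genes were called lower, and within the first row alone, where a single TKO array is assumed to vary like the WT arrays, 3 were: Terf1, Terf2 and Dkc1.

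**Figure D1:**
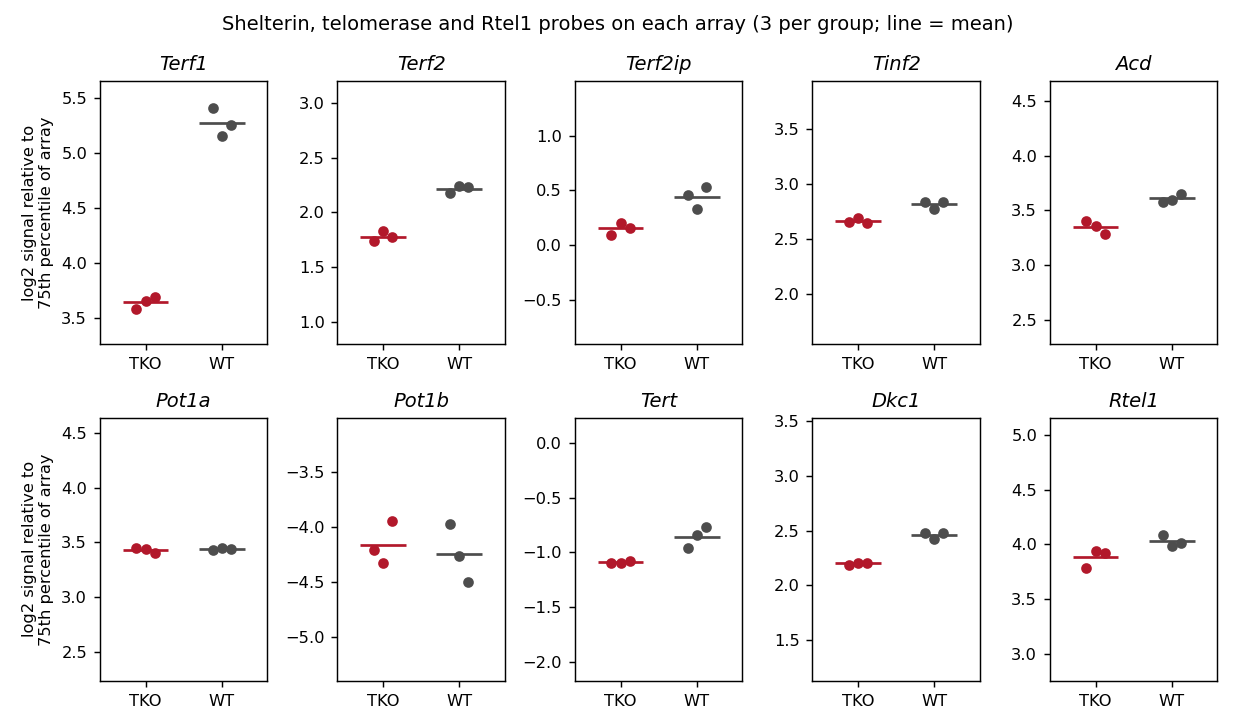
Level of each gene's brightest probe on the 3 TKO arrays (left, red) and the 3 WT arrays (right, grey) as log2 signal relative to the 75th percentile of the array, with a line at each group's mean. Every panel spans the same height in log2 units, and Terf1 shows the wide gap between groups (means of 3.64 and 5.27), whereas the points of Pot1a and Pot1b overlap.

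Terf1 encodes TRF1, the shelterin subunit that binds the double-stranded repeat and helps replication forks pass through it. Its only probe on the array lies on the plus strand of chromosome 1 in build mm9 (chr1:15833432-15833491), and the first 30 of its 60 bases are shown because the largest difference among these genes rests on this oligonucleotide alone.
A_55_P2000304: ccctaccaaattcagtaccccatcccatat

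Terf1 read 3.58, 3.65 and 3.69 in TKO cells, against 5.41, 5.15 and 5.26 in WT cells. All 3 TKO dishes lay far below the lowest WT dish, and the dishes within a group lay close together. The difference was -1.63 ± 0.077 (SE, n = 3 dishes per group; 95% confidence interval -1.83 to -1.44), or 3.11-fold lower in TKO, with an adjusted p of 3.12e-05 in limma. Of the tested genes, 2.69% had a more negative fitted difference, genes near background in TKO included. The call held in all 17 alternative settings, with differences between -1.84 and -1.57. With array row as a block, which rests on TKO replicate 1 against the WT arrays, it was -1.70 (adjusted p = 0.000751), and within the first row alone it was also -1.70 (adjusted p = 0.00303).

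Genes around Terf1 did not move as one block. Among the 39 other tested genes within 5 Mb the median difference was -0.098, and 14 were called lower and 4 higher. The 39 include lincRNA probes and other entries without a gene symbol. Over chromosome 1 as a whole, 39.6% of the 1233 tested genes were called lower and 20.3% higher, with a median of -0.12. Terf1 was 2.90-fold lower beyond the median of the genes within 5 Mb. A few of the 39 are named here after their values were seen. Between -2.98 and -1.09 Mb, Sulf1 (-0.68), Prdm14 (-0.76), Tram1 (-0.90), Lactb2 (-1.01) and Msc (-1.03) were called lower. In the same stretch Slco5a1 (1.65 ± 0.666 SE), Ncoa2 (-0.11) and Eya1 (0.083) did not pass the threshold. A forward-strand lincRNA probe at -2.75 Mb, well above background on all 6 arrays, fell by 2.14 ± 0.104 (SE). Prex2 was well above background on 1 TKO array and all 3 WT arrays, so that its fitted difference of -2.89 ± 0.315 (SE, adjusted p = 0.000672) rests on TKO values largely at background. A reverse-strand lincRNA lies right beside Terf1. It was read by 2 probes. The first, centred 1.63 kb past the Terf1 probe, read -5.46, -4.53 and -5.19 in TKO cells, against -3.45, -3.18 and -3.10 in WT cells. It was not well above background on any TKO array. With TKO values raised to at least the dimmest well-above-background spot of their array, its fall was 2.53-fold on this scale. The fitted difference of this probe was -1.82 (limma, adjusted p = 0.00181), and -0.51 with normexp background correction. The second probe, with its TKO values raised in the same way, gave 2.08-fold (adjusted p of its limma fit = 0.00662). Another reverse-strand lincRNA probe 6.32 kb from Terf1 differed by -0.061 ± 0.206 (SE, adjusted p = 0.82).

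Within 1 Mb there were 16 other tested genes, 6 called lower, 2 higher and 8 not past the threshold, beside the same shares of chromosome 1. The mitochondrial ATP synthase assembly gene Tmem70 fell by 1.04 ± 0.051, the ubiquitin-conjugating enzyme gene Ube2w by 0.80 ± 0.071 and Tceb1, which encodes elongin C, by 0.74 ± 0.048 (SE), all between 727 and 834 kb from Terf1. Closer in, the RNA-binding protein gene Stau2 (0.019 ± 0.048 SE, adjusted p = 0.759) and the retinol dehydrogenase gene Rdh10 (0.081 ± 0.141 SE, adjusted p = 0.654) gave differences near 0. A dimmer Stau2 probe was not well above background on any TKO array. With TKO values raised to at least the dimmest well-above-background spot, it was 1.19-fold lower (adjusted p of its limma fit = 0.00429). The ribosomal protein gene Rpl7, 258 kb away, differed by -0.21 ± 0.078 (SE, adjusted p = 0.0683). Ly96, at -0.36 ± 0.11 (SE, adjusted p = 0.0359), was called in 9 of 17 alternatives, and not without TKO replicate 2 (adjusted p = 0.0931), TKO replicate 3 (0.0976), WT replicate 1 (0.0996) or WT replicate 2 (0.0893). The gene model Gm7634 (-0.13 ± 0.037 SE, adjusted p = 0.0266) was called in 6 of 17 and lost its call without any 1 of the 6 arrays. Trpa1 differed by -0.84 ± 0.347 (SE, adjusted p = 0.088), with 1 TKO dish at -1.14, inside the WT range of -1.20 to -1.03, and the others at -2.40 and -2.28. The plot of differences by distance shows Gm7634 called lower between Terf1 and Ube2w, the brightest probes of Rpl7, Rdh10 and Stau2 there not past the threshold, and Ube2w, Tceb1 and Tmem70 called lower beyond them.

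**Figure D2:**
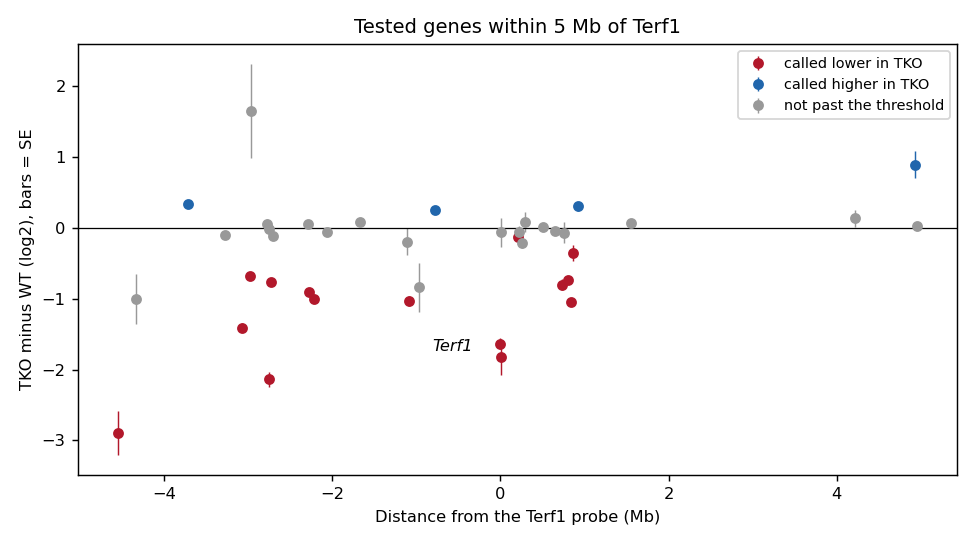
Difference between TKO and WT cells (log2, vertical axis, bars are SE) of Terf1 and the 39 other tested genes by distance from the Terf1 probe in Mb (horizontal axis). Points called lower in TKO are red (Terf1 and 14 others), points called higher are blue (4), and the rest are grey.

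The genes whose pattern over the 6 arrays was most like that of Terf1, by Euclidean distance after each gene was centred on its WT mean, were the histone gene Hist1h2aa (distance 0.127), the lymphangiogenic growth factor gene Vegfc (0.149) and Gsg1 (0.154). With 2 groups of 3 arrays this measure mainly finds genes with a difference of the same size, here -1.62, -1.66 and -1.56. They lie on chromosomes 13, 8 and 6.

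Terf2 encodes TRF2, which holds the telomere in its protected loop and keeps ATM signalling off chromosome ends. It has 3 probes on the minus strand of chromosome 8 (mm9), shown because their calls differed. The first is annotated to transcript variant 2 (chr8:109599420-109599479, first 30 bases), and the others to variant 1 (chr8:109593822-109593881, first 30 bases, and chr8:109600701-109600760, whole).
A_55_P2034350: atggcttccttgcattgggtgtactcttac
A_55_P2034345: tatgttgagcccagatgagagattttttca
A_52_P391210: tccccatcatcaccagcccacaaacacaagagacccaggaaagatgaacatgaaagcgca

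The brightest probe, A_55_P2034350, read 1.74, 1.83 and 1.77 in TKO cells, against 2.18, 2.24 and 2.23 in WT cells. All TKO dishes were below all WT dishes, with a difference of -0.44 ± 0.042 (SE, 95% confidence interval -0.54 to -0.33) or 1.35-fold (limma, adjusted p = 0.000428). Probe A_52_P391210 read -0.96, -0.86 and -0.82 in TKO cells, against -0.56, -0.64 and -0.67 in WT cells (-0.26 ± 0.055 SE, adjusted p = 0.00965). Those groups were also apart, by a narrower margin. Probe A_55_P2034345 read 1.68, 1.62 and 1.51 in TKO cells, against 1.65, 1.74 and 1.79 in WT cells, and the groups overlapped (-0.12 ± 0.063 SE, adjusted p = 0.151). The log2 ratio of A_55_P2034350 to A_55_P2034345 on the same array averaged 0.18 ± 0.102 in TKO cells and 0.49 ± 0.041 in WT cells (SD, n = 3 each). The difference of -0.31 gave p = 0.1 in a two-sided exact permutation test, the smallest that 3 arrays against 3 allow. With the mean of the 3 probes in place of the brightest, Terf2 was -0.27 (adjusted p = 0.00107), 1 of the alternatives that kept its call (17 of 17).

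Terf2ip encodes RAP1, the partner of TRF2. Its brighter probe (chr8:114542435-114542494, plus strand) read 0.097, 0.21 and 0.16 in TKO cells, against 0.46, 0.34 and 0.53 in WT cells. The 3 TKO dishes were again the lower ones, and the difference was -0.29 ± 0.065 (SE, adjusted p = 0.0123). A second probe about 3 kb upstream read -1.82, -1.74 and -1.81 in TKO cells, against -1.61, -1.56 and -1.52 in WT cells (-0.23 ± 0.047 SE, adjusted p = 0.00843). Both probes were called lower, and the log2 ratio between them differed by -0.059 between the groups. Within the first array row alone the brighter probe gave -0.34 (adjusted p = 0.0649).

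Acd encodes TPP1, which joins POT1 to TIN2 and has the surface that telomerase recognises. Its single probe (chr8:108222138-108222197, minus strand) read 3.40, 3.36 and 3.29 in TKO cells, against 3.58, 3.60 and 3.65 in WT cells. The groups did not overlap, and the difference was -0.26 ± 0.047 (SE, adjusted p = 0.00524). With the array row as a block it was -0.21 (adjusted p = 0.0509) and within the first row also -0.21 (adjusted p = 0.0727).

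Terf2, Terf2ip and Acd all lie on chromosome 8, where the median difference over the other 1172 tested genes was -0.22 and 568 were called lower. For Acd the median of the 133 other tested genes within 5 Mb was -0.26, equal to its own difference to within 0.0013. For Terf2ip that median was -0.31 over 98 genes, 0.028 further down than the gene itself. For Terf2 it was -0.26 over 169 genes, and the brightest Terf2 probe was 1.13-fold lower beyond it. The other Terf2 probes, at -0.26 and -0.12, were not below that median, and the mean of the Terf2 probes was -0.27. These gaps to the surroundings were not tested.

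**Figure D3:**
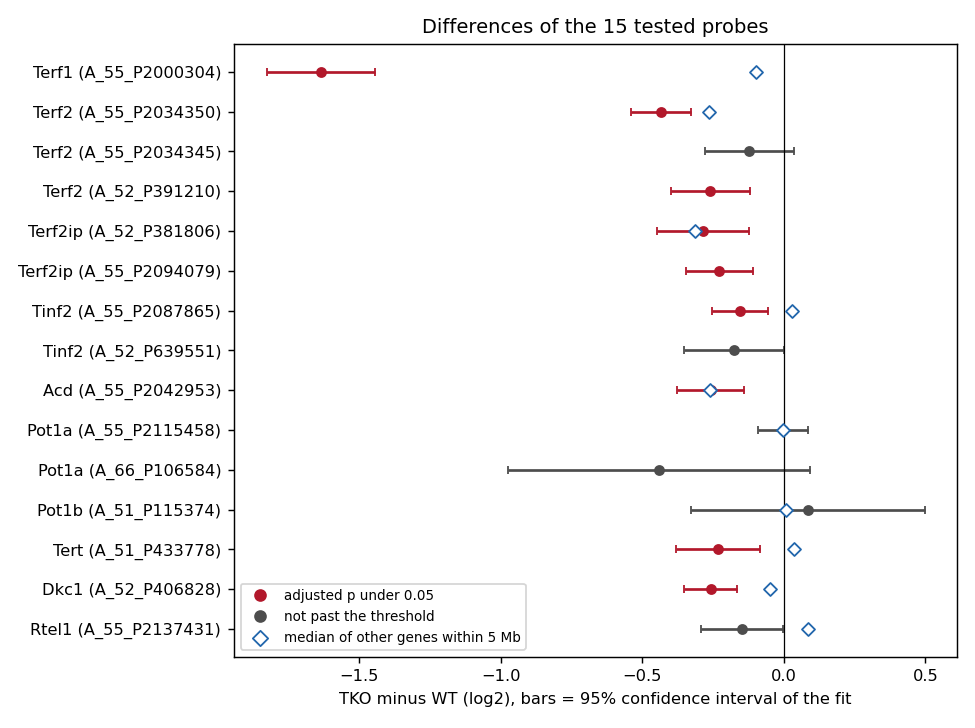
Difference between TKO and WT cells (log2, horizontal axis) of the 15 tested probes, with 95% confidence intervals from the fit, red where the adjusted p was under 0.05. Blue diamonds mark, for each gene's brightest probe, the median of the other tested genes within 5 Mb, which nearly coincides with the probe for Terf2ip and Acd and is -0.098 for Terf1, whose probe is at -1.63.

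Tinf2 encodes TIN2, the bridge between TRF1, TRF2 and TPP1. Its 2 probes adjoin each other on the minus strand of chromosome 14 (chr14:56298352-56298411 and chr14:56298188-56298351). They are shown whole because the second spans 164 bases of genome with 60 bases of sequence, and so reads RNA with the bases in between removed.
A_55_P2087865: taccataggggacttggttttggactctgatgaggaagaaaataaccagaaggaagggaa
A_52_P639551: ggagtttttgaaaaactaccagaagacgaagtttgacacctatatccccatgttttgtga

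A_55_P2087865 read 2.65, 2.69 and 2.64 in TKO cells, against 2.84, 2.78 and 2.84 in WT cells. The groups stood close but apart, with a difference of -0.16 ± 0.039 (SE, adjusted p = 0.0181). A_52_P639551 read 2.36, 2.38 and 2.47 in TKO cells, against 2.67, 2.46 and 2.62 in WT cells, which overlap (-0.18 ± 0.070 SE, adjusted p = 0.0797). The log2 ratio between the 2 probes differed by 0.020 between the groups. The second probe passed without WT replicate 2 (-0.24, adjusted p = 0.0263). The call of Tinf2 was lost without TKO replicate 3 (adjusted p = 0.0588), WT replicate 1 (0.0582) or WT replicate 3 (0.0626), with no filter on dim probes (0.103), with the array row as a block (-0.17, adjusted p = 0.072) and within the first row (-0.17, adjusted p = 0.112).

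Mice have 2 POT1 genes where humans have 1, and both products bind the single-stranded overhang. Pot1a has 3 probes on the minus strand of chromosome 6 and Pot1b has 1 on chromosome 17. The brightest Pot1a probe (chr6:25693898-25693957) holds a run of 14 bases of alternating G and T, in capitals in the stretch from base 16 to base 45, and is shown because the level of the gene rests on it.
A_55_P2115458: atttttgtgtcTGTGTGTGTGTGTGaatca

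It read 3.45, 3.44 and 3.41 in TKO cells, against 3.43, 3.45 and 3.44 in WT cells. The values of both groups interleave, with a difference of -0.0046 ± 0.035 (SE, adjusted p = 0.922) and a 95% confidence interval of -0.093 to 0.084. Its sign flipped under quantile normalization, within the first array row, with the row as a block and without TKO replicate 3. A dimmer probe annotated to an Ensembl transcript (A_66_P106584) read -4.49, -3.69 and -3.98 in TKO cells, against -3.48, -3.61 and -3.76 in WT cells. Here 1 TKO dish lay within the WT range, and the difference of -0.44 ± 0.213 (SE) did not pass (adjusted p = 0.132). A single array moved its size: it was -0.22 (adjusted p = 0.211) without TKO replicate 1, and -0.15 (adjusted p = 0.206) with normexp background correction. It passed in 5 of 15 alternatives, among them those without TKO replicate 2 (-0.62, adjusted p = 0.0394), within the first row (-0.88, adjusted p = 0.0134) and with the row as a block (-0.88, adjusted p = 0.0137). The last Pot1a probe was not well above background on any array and was not tested.

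The Pot1b probe (chr17:55792319-55792378, minus strand) is printed in 10 spots per array. Averaged over spots, it read -4.21, -4.32 and -3.95 in TKO cells, against -3.97, -4.26 and -4.50 in WT cells. The groups overlap, with a difference of 0.085 ± 0.165 (SE, adjusted p = 0.689) and a 95% confidence interval of -0.33 to 0.50. The spots were dim: between 2 and 9 of 10 were well above background on TKO arrays and between 8 and 10 on WT arrays. Over all 10 spots of an array, including outlier spots that the averages leave out, the SD was wider than the difference between groups. It was 0.37 to 0.57 on TKO arrays and 0.22 to 0.36 on WT arrays. The sign of the Pot1b difference flipped under quantile normalization, median centring and without TKO replicate 3 or WT replicate 3.

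Tert encodes the reverse transcriptase of telomerase. Its probe (chr13:73786429-73786488, plus strand) read -1.09, -1.09 and -1.08 in TKO cells, against -0.96, -0.84 and -0.76 in WT cells. The TKO dishes hardly differed from each other and lay below all WT dishes, with a difference of -0.23 ± 0.060 (SE, 95% confidence interval -0.38 to -0.083), or 1.18-fold (adjusted p = 0.0194). The call was lost without TKO replicate 1 (adjusted p = 0.051), TKO replicate 2 (0.0558) or WT replicate 2 (0.0622), with the array row as a block (-0.24, adjusted p = 0.0987), within the first row (-0.24, adjusted p = 0.145) and with no filter on dim probes (adjusted p = 0.0712).

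Dkc1, on the X chromosome, encodes dyskerin, the pseudouridine synthase that holds the telomerase RNA and other H/ACA RNAs. Its probe (chrX:72354473-72354532, plus strand) read 2.19, 2.20 and 2.21 in TKO cells, against 2.47, 2.42 and 2.48 in WT cells. The groups were clearly apart relative to their spread, with a difference of -0.26 ± 0.037 (SE, adjusted p = 0.00214) that kept its call in 17 of 17 alternatives. The median of the 107 other tested genes within 5 Mb was -0.050, and Dkc1 was 1.15-fold lower beyond it. Gaps of like size were seen for Tert (1.21-fold beyond a median of 0.037), Rtel1 (1.18-fold beyond 0.086) and Tinf2 (1.14-fold beyond 0.029). None of these gaps was tested.

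Rtel1 encodes a helicase that unwinds telomeric loops and quadruplexes, first mapped as a regulator of telomere length in mice. Its probe (chr2:181091224-181091283, plus strand) read 3.78, 3.94 and 3.92 in TKO cells, against 4.08, 3.99 and 4.01 in WT cells. Although the groups did not overlap, the difference of -0.15 ± 0.058 (SE, 95% confidence interval -0.29 to -0.0020) did not pass the threshold (adjusted p = 0.0776). It passed with the row as a block (-0.24, adjusted p = 0.0311) and with the deposited value table (-0.17, adjusted p = 0.0468). It also passed with median centring (-0.35, adjusted p = 0.00436), which moved the median of all tested genes to -0.21.

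Other genes that serve telomeres were counted from 5 lists of 42 genes, of which 41 were tested. Of these 20 were called higher in TKO, 11 lower and 10 not past the threshold. Among all tested genes, 29.4% were called higher and 28.9% lower, which is also the background of the counts in each list. The 41 genes had a median difference of 0.082 and 0 were called at 2-fold, while 13.6% of all tested genes were called at 2-fold or more. The split depended on the scaling. Centred on the array median, which moved the median of all tested genes to -0.21, 9 were called higher and 17 lower. Of the 20 called higher, 7 lie on chromosome 11, where the median of all tested genes was 0.34 and 57.2% of them were called higher.

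CST is the complex that fills in the strand opposite the one telomerase extends. Ten1 rose by 0.77 ± 0.056 (SE; 0.86, 0.82 and 0.71 in TKO cells, against 0.0024, -0.014 and 0.077 in WT cells), and the partner gene Stn1, listed as Obfc1, fell by 0.56 ± 0.041 (SE; 2.20, 2.20 and 2.12 in TKO cells, against 2.74, 2.73 and 2.75 in WT cells). Ctc1, encoding the large subunit, rose by 0.19 ± 0.047 (SE, adjusted p = 0.0151), but was -0.0070 under median centring and lost its call without WT replicate 3 (adjusted p = 0.0524). Ten1 and Ctc1 lie on chromosome 11, and the difference of Ctc1 is below the median of its 5 Mb surroundings (0.36). All 3 subunit genes were thus called, in opposite directions.

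In the list on the telomerase particle and its assembly, 8 of 15 genes were called higher and 4 lower. Coil, encoding the Cajal body scaffold coilin, rose by 0.82 ± 0.074, Smg6, encoding a nuclease with a domain like the yeast telomerase subunit Est1, by 0.70 ± 0.041, and Nhp2, encoding an H/ACA protein that partners dyskerin, by 0.63 ± 0.048 (SE). These 3 genes lie on chromosome 11, in surroundings with medians of 0.40, 0.46 and 0.18. In the other direction, Tep1, encoding a telomerase-associated protein of the vault particle, fell by 0.71 ± 0.053, Pinx1, whose human product inhibits telomerase, by 0.38 ± 0.037, and Shq1, encoding a dyskerin chaperone, by 0.30 ± 0.045 (SE). Terc, the template RNA, is named outside the rule for its role. Its probe read -3.14, -2.83 and -3.15 in TKO cells, against -2.48, -3.07 and -2.54 in WT cells, which overlap. The difference of -0.35 ± 0.185 (SE) did not pass (adjusted p = 0.167), but did without WT replicate 2 (-0.53, adjusted p = 0.02). It also passed with median centring (-0.55, adjusted p = 0.0344), which moved the median of all tested genes to -0.21.

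Among 13 tested genes of proteins that act with shelterin, 3 were called higher and 6 lower. All 3 genes of the MRN complex, which senses broken ends, fell: Nbn by 0.67 ± 0.065, Rad50 by 0.57 ± 0.047 and Mre11a by 0.51 ± 0.036 (SE). Nbn read -1.09, -1.09 and -1.19 in TKO cells, against -0.56, -0.37 and -0.43 in WT cells. Rad50 lies on chromosome 11 in surroundings with a median of 0.24 and was the 1 gene called lower among the 8 of these lists on that chromosome. Ercc4, encoding the nuclease subunit XPF, rose by 0.46 ± 0.063, Tnks2, encoding a tankyrase that modifies human TRF1, by 0.33 ± 0.038, and Rif1, encoding a replication timing factor, by 0.27 ± 0.040 (SE). The calls of Tnks2 (adjusted p = 0.205) and Rif1 (adjusted p = 0.39) were lost with median centring.

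Of 7 genes of telomeric chromatin, 4 were called higher and 0 lower, and at an unadjusted p under 0.05 the count lower was also 0. Atrx, which encodes the remodeller that places histone H3.3 at telomeres, rose by 0.94 ± 0.074 (SE; 0.69, 0.83 and 0.95 in TKO cells, against -0.10, -0.097 and -0.15 in WT cells). Zbtb48, whose human product binds the telomeric repeat, rose by 0.40 ± 0.072 and Nr2c2, an orphan nuclear receptor gene, by 0.34 ± 0.058 (SE), and both calls were lost with median centring (adjusted p = 0.157 and 0.115), as was that of Zbtb48 within the first row (0.0597). The 3 genes of helicases related to RTEL1 were called higher: Ercc2 by 0.72 ± 0.054, Brip1 by 0.48 ± 0.062 and Ddx11 by 0.33 ± 0.040 (SE), the last not with median centring (adjusted p = 0.15). Brip1 lies on chromosome 11, where the median of its 5 Mb surroundings was also 0.48.

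**Figure D4:**
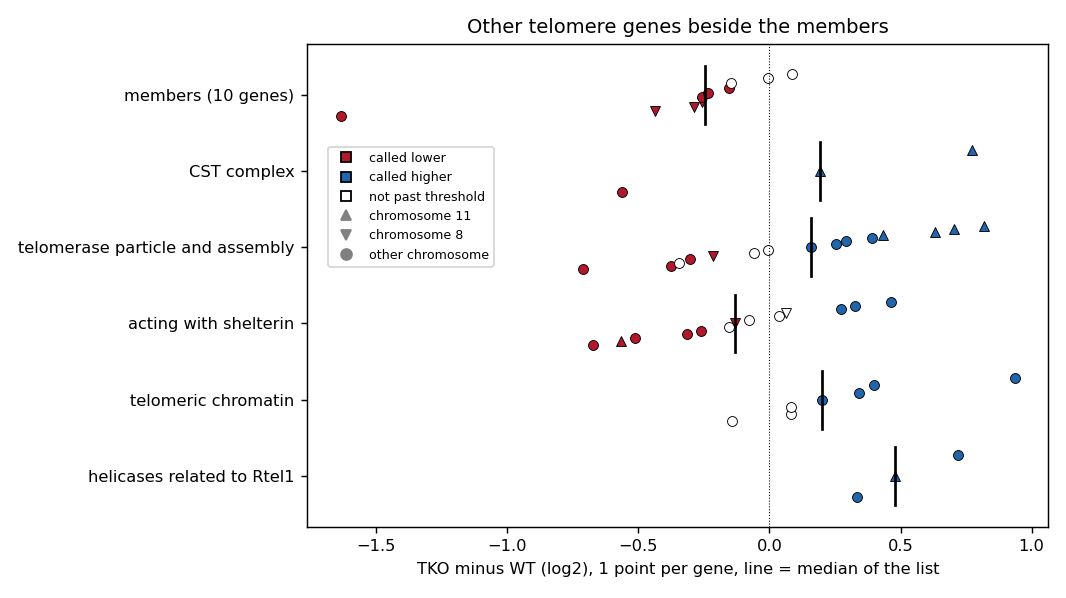
Difference between TKO and WT cells (log2, horizontal axis) of the 10 members and of the 41 tested genes in 5 lists of other telomere genes, 1 point per gene with a line at the median of each list. Filled points were called lower (red) or higher (blue), triangles mark chromosomes 11 (up) and 8 (down), and the members lie mostly below 0 with Terf1 far to the left at -1.63.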

How the data were processed

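RNA of 6 dishes (3 TKO, 3 WT) was read on 1-colour Agilent arrays. Per the file headers and the submitters' processing notes, the authors used Agilent Feature Extraction 11.5.1.1, and the deposited processed signal, mean signal and local background are intensity values, detrended within an array but not normalized between arrays. Deposited flags of 0 or 1 per spot are another unit (other). A deposited value table is on a log2 scale centred on the 75th percentile, judged from the values (column medians of -4.03 to -3.74); how it was made is not stated.

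Control and outlier spots were left out, spots of a probe were averaged as log2, and the 75th percentile of each array was subtracted. Probes well above background on at least 3 of 6 arrays (on more than 0.5 of its spots, where several) were fitted with limma 3.58.1 (lmFit, eBayes) in R 4.3.3, two-sided. The fit was tested on simulated arrays with independent noise and known changes of 2-fold or more, so that smaller differences were not covered. The number of arrays limits the precision. Positions are those of the files (mm9), and 0 of the columns belonged to other samples. Descending coordinates were read as the minus strand (the order equalled RefSeq's strand for 99.5% of 23384 probes). The members and lists were chosen with earlier results of these data known. Named genes are all members, up to 3 called higher and lower per list, genes with a symbol within 1 Mb of Terf1, and those most like it. Alternatives were normexp, quantile normalization, median centring, other filters, the deposited table, other probe choices, blocks and leaving out each array. No replicate pairing was used: same-numbered arrays deviated with correlations of -0.061, -0.0083 and 0.0026.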

Additional observations from a re-analysis of the deposited data

How the results depend on the processing

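Of the member genes 5 to 8 were called lower in every alternative but 1: within the first array row alone 3 genes and 5 probes were called lower, where 1 TKO array remained. Without each array in turn 6 to 6 genes and 8 to 9 probes were called lower, and 0 of either higher. With the replicate block, a pairing that the numbers alone do not establish, 6 member genes were called lower, and Tinf2 lost its call (adjusted p = 0.0759). Other telomere genes called higher and lower numbered 9 and 17 with median centring, 16 and 7 within the first row, and 17 to 20 and 10 to 11 without each array in turn. Signs reversed for Pot1a with quantile normalization (0.0015), the row as a block (0.013), the first row alone (0.013) and without TKO replicate 3 (0.0089; -0.013 to 0.0089 without each array in turn), for Pot1b with quantile normalization (-0.11), median centring (-0.12), without WT replicate 3 (-0.044) and without TKO replicate 3 (-0.022; -0.044 to 0.22 without each array in turn), and for Ctc1 with median centring (-0.0070). The median of all tested genes was -0.21 with median centring, which subtracts the median signal of each array. That signal was 26.8 to 28.8 intensity units on TKO arrays and 22.7 to 24.5 on WT arrays, and why was not tested. With no filter on dim probes the median of all tested genes was 0.14, over 34650 genes in place of 21562. Dim probes (Pot1b, Terc and the second Pot1a probe) limit what their values can show.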
